A study of Monodelphis domestica and Mus musculus and Sus scrofa with 73 samples.

Results

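Hind limbs of embryos of the bat Carollia perspicillata, the short-tailed fruit bat, were compared between stage 15 and stage 14. The paper takes the forelimb as an early bud at stage 14 and as a paddle at stage 15. For the hind limb the labels give a stage number only. The libraries were chosen by their stage labels, which gave 2 hind limb libraries at stage 15 and 3 at stage 14, or 5 of the 16 bat libraries analysed here. Each gene in the tables is an assembled component with an expected count, the estimated number of reads that came from it. Of the 27026 genes, 15305 reached 10 rounded counts in 2 or more of the 5 libraries and were tested, and 11721 did not pass this filter. The paper, which describes forelimb libraries, obtained its bat embryos from field collections in Trinidad. No treatment or genotype is stated for the hind limb libraries, and each library was made from total RNA of limbs. The labels give no sex, litter or embryo for a library, and p-values measure the spread between these libraries, which may be technical.

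In mammalian embryos the limb bud grows out as mesenchyme under an epithelial ridge, and it then flattens into a paddle in which cartilage of the digits condenses and the tissue between the digits is shaped. In bats the forelimb goes on to form the wing, with very long digits joined by membrane, while the hind limb forms a small clawed foot. The hind limb therefore forms an autopod without a wing. Because the authors' tables identify genes by assembly number and pair no number with a gene name, none of the changes below can be assigned to a known limb gene, and the labelled tissue could not be checked against marker genes. A library was made from a mixture of cells, so a change in the number of cells of a type and a change in RNA per cell cannot be told apart.

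The 5 libraries held 27497418, 61814821 and 17910029 expected counts at stage 14 (replicates 1 to 3) and 37311327 and 16876665 at stage 15. A count of 3, taken as the lowest level a library could show, was between 0.0485 and 0.178 CPM (counts per 1000000 counts of the library), a limit that covers counting error only. Replicate 3 of stage 14 stood apart. Of genes under 300 bases it had a count for 19.9%, against 7.91% to 11.7% in the other 4 libraries. Its Spearman coefficients of FPKM, a level scaled for length and library size, were from 0.757 to 0.780 with those 4 libraries, over 22433 genes. Among the other 4 libraries the coefficients ran from 0.888 to 0.923. The Spearman coefficients and the number of genes called are also given below without it. The shares of counts, the FPKM medians, the classes by level, length and isoforms and the isoform lengths include it.

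The Spearman coefficient was 0.823 ± 0.0749 (SD, n = 3 pairs, which share libraries) within stage 14, 0.923 within stage 15 (1 pair) and 0.854 ± 0.0734 (SD, n = 6 pairs) between the stages. Libraries of the same stage were thus not always the more alike, and the pairs with replicate 3 of stage 14 were the lowest of both kinds. Without that library, and with genes selected anew, the coefficient was 0.9002 within stage 14 and 0.889 between stages on average. Among genes of 1000 bases or more it was 0.975 within stage 14, 0.986 within stage 15 and 0.959 between the stages. The coefficient of variation (CoV, SD over mean) between 2 libraries of a stage had a median over 16240 genes of 0.178 ± 0.0296 (SD, n = 3 pairs) at stage 14, with a range from 0.154 to 0.211. It was 0.109 for the 1 pair at stage 15, below each pair of stage 14. With libraries thinned to the same depth these values were 0.166 and 0.102. With 1 pair at stage 15 the difference could not be tested.

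Between stage 14 and stage 15, 572 genes rose and 189 fell in the hind limb, at an adjusted p-value under 0.05 in edgeR's quasi-likelihood test. These 761 genes were 4.97% of the genes tested, with 3.74% higher and 1.23% lower at stage 15. All 761 had CPM that did not overlap between the stages, as had 5744 (37.5%) of the genes tested. The median fold change was 3.49-fold among the genes that rose and 2.60-fold among those that fell, against a median change in either direction of 1.21-fold over all genes tested. Of the genes that rose, 504 changed at least 2-fold, 253 at least 4-fold and 106 at least 8-fold. Of those that fell, the counts were 143, 53 and 26. DESeq2 called 1366 genes, or 8.93% of those tested, of which 871 were higher, so that 63.8% of its calls were higher against 75.2% in edgeR. Of the 761 genes, 742 were among the DESeq2 calls with the same direction. Without either stage 15 library, edgeR called 254 (replicate 1 left out) and 234 genes (replicate 2 left out), and without replicate 2 of stage 14 it called 469. Without replicate 3 of stage 14, the library that stood apart, it called 839, of which 642 were among the 761.

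**Figure D1:**
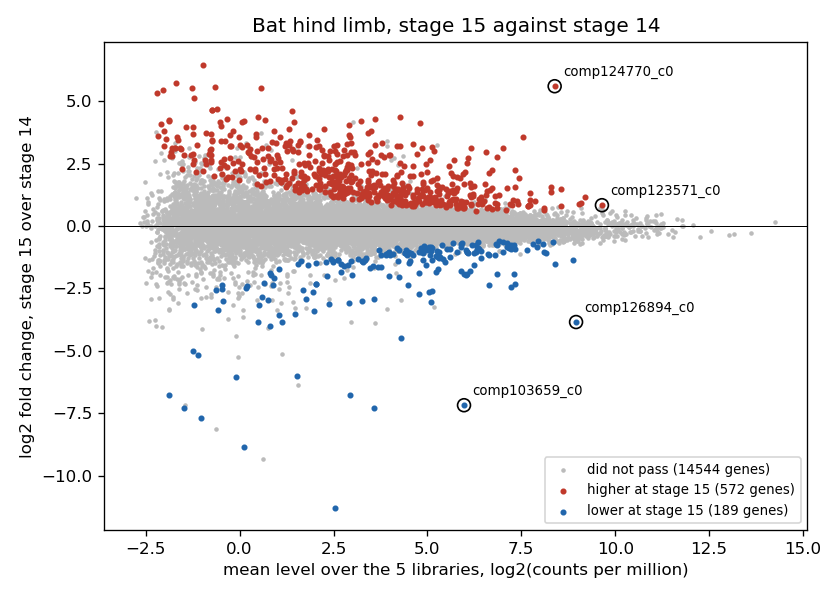
Each point is 1 of the 15305 genes tested, with its mean level over the 5 hind limb libraries on the x axis (log2 of CPM) and its log2 fold change of stage 15 over stage 14 on the y axis. Red and blue points are the 572 genes that rose and the 189 that fell, grey points did not pass, and the circles mark the 4 genes named in the text, of which comp124770_c0, comp126894_c0 and comp103659_c0 lie far outside the spread of genes at their level.

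The genes that rose took a small part of a library's counts at stage 14 and a larger part at stage 15. They held 1.09%, 1.08% and 1.16% of the counts in the stage 14 libraries and 2.82% and 2.95% in the stage 15 libraries. The genes that fell held 1.32%, 1.30% and 1.26% at stage 14 and 0.595% and 0.557% at stage 15. In both sets the libraries of a stage lay close together and the stages did not overlap, which follows from how the genes were called. The rise was spread over many genes, since the 10 largest changes made up 23.6% of the summed change of the genes that rose and 35.2% of that of the genes that fell. Of the genes that rose, 146 had a mean under 1 CPM at stage 14, and 32 still had at stage 15. Of the genes that fell, 39 had a mean under 1 CPM at stage 15, against 7 at stage 14.

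Scaled for length, the genes that rose had a lower median level at stage 14 than all genes tested and those that fell a higher one, whereas at stage 15 both medians were below that of all genes tested. The median FPKM of the genes that rose was 2.03 at stage 14 and 8.34 at stage 15. That of the genes that fell was 17.7 and 5.99, and over all genes tested it was 10.1 and 10.5. No tested gene had 0 counts in all stage 14 libraries. In both stage 15 libraries 8 tested genes had 0 counts, and 5 of them passed. Against a floor of 3 counts over both stage 15 libraries (0.0554 CPM), the change of these 5 genes was at least 8.14-fold lower for the smallest and at least 175-fold lower for the largest.

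The share of genes that passed varied with level, length and the number of assembled isoforms. Ordered by mean CPM into 4 equal groups, 4.86% of the genes passed in the lowest group, 7.24% in the next, 4.34% in the one after and 3.45% in the highest. The median absolute log2 fold change of those that passed was 2.97 in the lowest group and 1.03 in the highest, and the median standard error over the genes tested was 0.51 and 0.17. Genes that rose were 83.3% of those that passed in the lowest group and 57.6% in the highest. By length, 3.16% of genes of up to 500 bases passed and 5.45% of those over 4000 bases. By the number of assembled isoforms, 5.89% of genes with 1 isoform passed and 2.91% of those with 10 or more, and this came from the genes that rose (4.70% and 1.49%) rather than those that fell (1.19% and 1.43%). These shares are descriptions without a test, and each property was taken on its own.

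**Figure D2:**
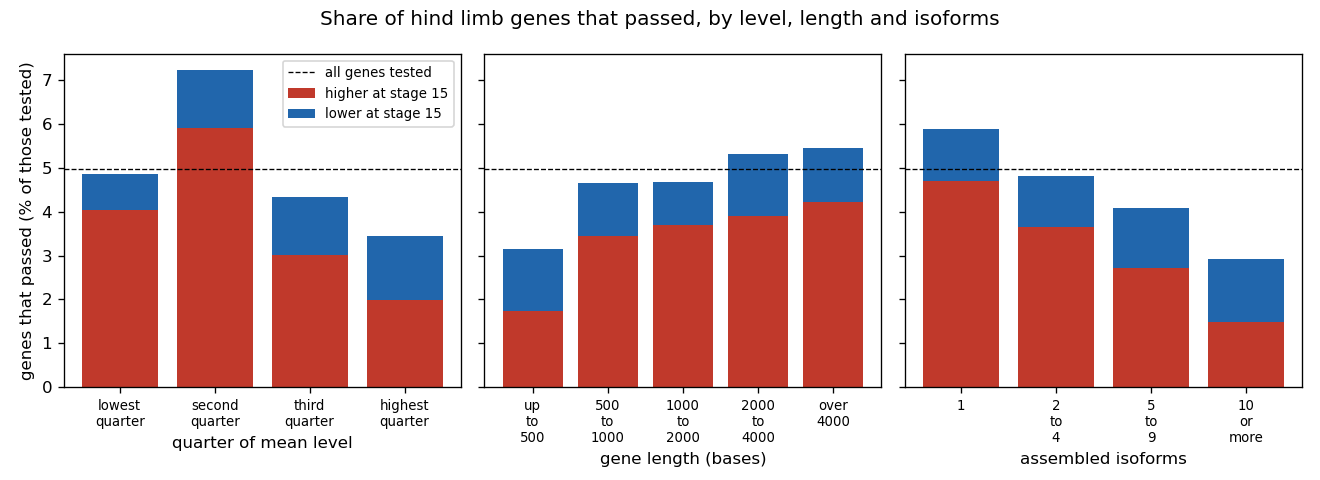
Bars give the share of the hind limb genes tested that passed (y axis, percent), split into those that rose (red) and fell (blue), by 4 equal groups of mean level, by gene length in bases and by number of assembled isoforms. The dashed line is the 4.97% over all genes tested, and the share runs down from 5.89% for genes with 1 isoform to 2.91% for those with 10 or more.

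Among genes with no overlap between the stages and a mean count of at least 10 at each stage, the gene with the most counts among those that fell was comp126894_c0, a component of 4477 bases with 1 isoform. It stood at 869, 825 and 678 CPM in the stage 14 hind limbs and at 61.6 and 51.8 CPM in those of stage 15. The 2 stage 15 libraries were far below all 3 of stage 14, and the change was -3.84 on the log2 scale (SE, the standard error, 0.22, adjusted p = 0.000138, edgeR), or 14.3-fold lower. At stage 13 the hind limb libraries were at 1138, 1164 and 1427 CPM, above each stage 14 library. The gene was therefore highest at stage 13, somewhat lower at stage 14 and much lower at stage 15, with no overlap at either step. In the forelimb it stood at 1072 to 1152 CPM in the 3 stage 13 libraries, at 348, 397 and 628 CPM in those of stage 14 and at 65.2 and 55.0 CPM in those of stage 15. All stage 14 forelimbs were below all stage 14 hind limbs, whereas at stage 15 the limbs overlapped. The stage 14 forelimb at 628 CPM is titled by its stage number, as the hind limbs are. Those at 348 and 397 CPM are titled ES, so limb and set of libraries cannot be fully told apart. This difference was not tested. Its forelimb change was -2.96 on the log2 scale (SE 0.25, adjusted p = 0.000239, edgeR), and the difference between the limbs of -0.87 did not pass (adjusted p = 0.945, edgeR).

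Of the genes that rose, the one with the most counts was comp123571_c0, of 2220 bases and 1 isoform. Its level was 599.7, 686 and 514 CPM at stage 14 and 1098 and 1106 CPM at stage 15. The stage 15 values differed by less than those of stage 14 and lay above all of them, and the change was 0.83 on the log2 scale (SE 0.18, adjusted p = 0.0336, edgeR), or 1.78-fold. Without either of the stage 15 libraries it did not pass (adjusted p = 0.234 and 0.242, edgeR), although the size of the change was 0.83 both times, nor did it pass with limma on log2(FPKM + 1) (adjusted p = 0.0840). At stage 13 the hind limb libraries stood at 582, 507 and 425 CPM and overlapped with stage 14. In the forelimb the change was of like size, with 759, 711 and 579 CPM at stage 14 and 1228 and 1236 CPM at stage 15, and a log2 change of 0.81 (SE 0.14, adjusted p = 0.00677, edgeR).

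With the same limit on counts, which leaves out steeper fitted changes of genes with few counts, the largest fold among the genes that fell was that of comp103659_c0, which has 18 isoforms and a mean length of 3574 bases. It stood at 98.2, 92.5 and 122 CPM in the stage 14 hind limbs and at 0.402 and 1.30 CPM, or 15 and 22 counts, at stage 15. Among the genes that rose it was that of comp124770_c0, which has 14 isoforms and a mean length of 12870 bases, at 24.0, 16.4 and 7.82 CPM at stage 14 and 861 and 764 CPM at stage 15. The changes were -7.17 (SE 0.41, adjusted p = 0.000138, edgeR) and 5.60 (SE 0.42, adjusted p = 0.000650, edgeR) on the log2 scale. Both genes kept their direction and passed with each hind limb library left out, but neither passed when all 16 bat libraries shared 1 fit (adjusted p = 0.166 and 0.0609, edgeR).

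These 2 genes did not follow stage outside the comparison. At stage 13, the hind limb libraries had 0 to 0.353 CPM of comp103659_c0 and 570 to 1101 CPM of comp124770_c0, as at stage 15 and unlike stage 14. In the forelimb, libraries of one stage took opposite sides. At stage 13, replicate 2 had 97.1 CPM of comp103659_c0 and 17.8 CPM of comp124770_c0, while replicates 1 and 3 had 0.339 and 0.294 CPM of comp103659_c0 and 868 and 1339 CPM of comp124770_c0. At stage 15, replicate 1 had 0.696 CPM of comp103659_c0 and 892 CPM of comp124770_c0, and replicate 2 had 147 and 21.1 CPM. Across all 16 bat libraries, comp103659_c0 was between 92.5 and 148 CPM in 8 libraries and at or below 1.30 CPM in the other 8, and comp124770_c0 was between 7.82 and 24.0 CPM in the former and between 570 and 1339 CPM in the latter. No library was in between or had both genes high.

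**Figure D3:**
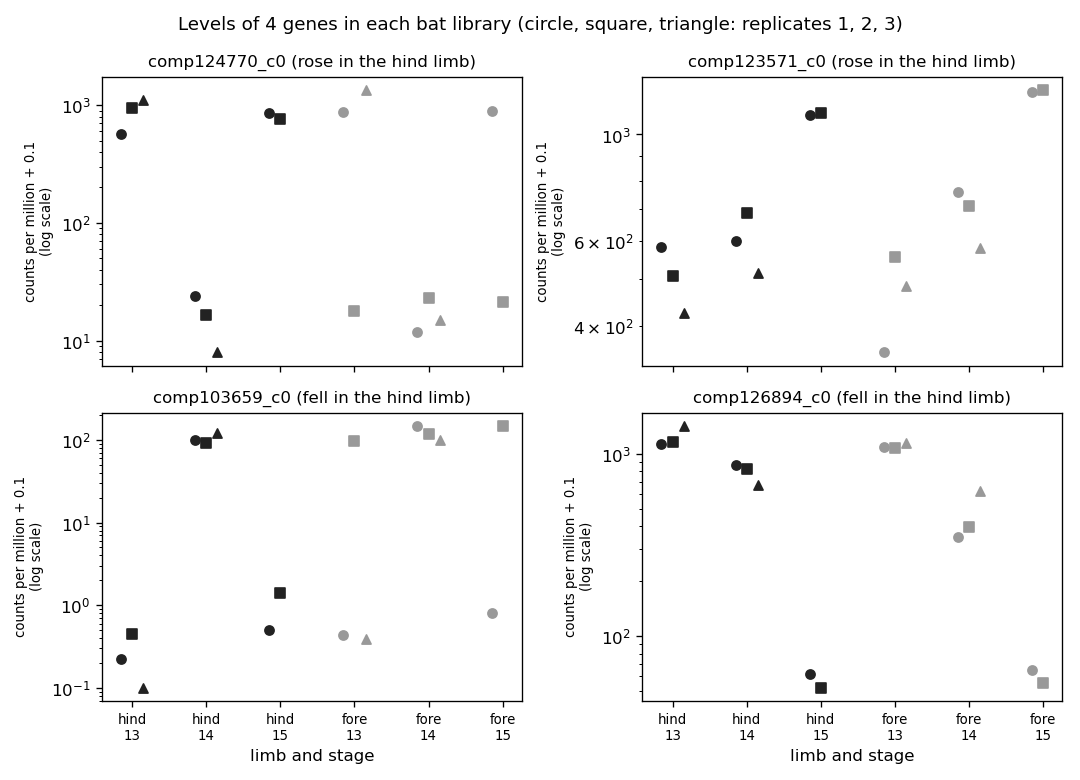
CPM plus 0.1 (log axis) of 4 genes in each of the 16 bat libraries, by limb and stage, with black for hind limb and grey for forelimb and 1 marker shape for each replicate number. comp126894_c0 falls and comp123571_c0 is highest at stage 15 in both limbs, while comp124770_c0 and comp103659_c0 take either a high or a low level within stages 13 and 15 of the forelimb and always opposite to each other.

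In the hind limb all 3 stage 14 libraries were on one side of this division and both stage 15 libraries on the other, so for genes that follow it, division and stage cannot be told apart. What the division is was not tested, and since the labels give no sex of the embryos, a difference in sex between the stage 14 and stage 15 hind limbs cannot be told apart from stage either. To count genes that follow the division closely, each was compared with comp103659_c0 by Pearson's r of log2(CPM + 0.5). This r was taken over the 11 bat libraries outside the comparison, a description with limb and stage mixed. Of the 761 genes that passed, 10 others had an r of 0.9 or above in size. These were 9 that fell, with positive r, and 1 that rose, with negative r, which was comp124770_c0 (r = -0.99). A further 4 tested genes reached this r without passing. Of the 12 genes that fell with a log2 fold change of -5 or below, 9 were comp103659_c0 itself or in this set. Of the 9 genes that rose with a log2 fold change of 5 or above, 1 was. Without comp103659_c0 and the 10 others, 571 genes that rose and 179 that fell were left. A gene that follows the division in part, or that changes with stage as well, can stay below this r. The genes left are thus not shown to be free of the division.

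All the genes that passed, those that follow the division included, were also read in libraries that took no part in the comparison. In the forelimb, 2 libraries of stage 15 were fitted against 3 of stage 14, with no library in common with the hind limb. There 1922 genes passed, or 12.8% of the 15015 tested, with 1270 higher (8.46%) and 652 lower (4.34%) at stage 15. Of the 572 genes that rose in the hind limb, 556 were tested in the forelimb, 545 of these (98.0%) had a positive change and 424 (76.3%) passed as higher, while 1 passed as lower. Of the 189 genes that fell, 185 were tested, 179 (96.8%) had a negative change and 56.8% passed as lower, while 1 passed as higher. Over all genes tested in both limbs, 48.7% had a positive change in the forelimb. The 529 genes that passed in both limbs in the same direction were 69.5% of the hind limb calls and 27.5% of the forelimb calls. Read the other way, the genes that passed in the forelimb had hind limb changes of the same sign for 97.8% of those higher and 95.1% of those lower, at a median hind limb log2 fold change of 1.00 and -0.45.

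**Figure D4:**
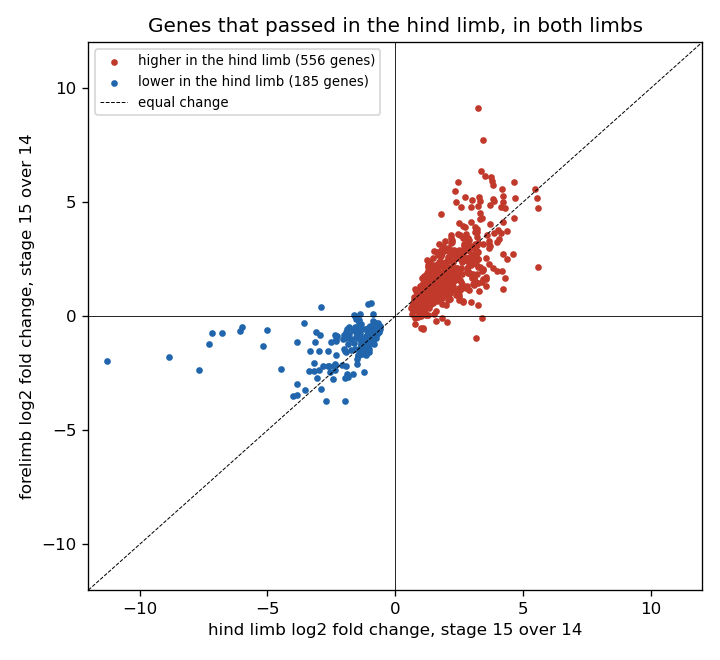
The log2 fold change of stage 15 over stage 14 in the forelimb (y axis) against that in the hind limb (x axis) for the 556 genes that rose (red) and the 185 that fell (blue) in the hind limb and were tested in the forelimb, with a dashed line of equal change. Nearly all points lie in the quadrants of equal sign, and several genes with hind limb changes below -5 have forelimb changes nearer 0.

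The change was of like size in both forelimb libraries of stage 15, which lay on opposite sides of the division described above. Relative to the mean of the stage 14 forelimb libraries, all of which were on the side of replicate 2 of stage 15, the genes that rose in the hind limb were higher by a median log2 of 1.36 in replicate 1 and 1.30 in replicate 2, with 98.3% and 97.2% of genes higher. The genes that fell were lower, with medians of -0.90 and -0.77 and 96.3% and 93.1% of genes lower. With replicate 1 of stage 15 left out, all forelimb libraries are on one side, but 1 library is left at stage 15. The number of genes that then pass rests on that 1 library and was not set against the division. By title, the stage 15 forelimbs are named LS and those of stage 14 ES, except 1 that is named by its number. With that library left out, 489 genes were shared between the limbs in place of 529.

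How many genes were called as changing differently in the 2 limbs from stage 14 to 15 depended on the tool and the fit. In the interaction of stage with limb over the 10 libraries of both limbs, 0 of 15783 genes (0.0%) passed in edgeR, 2 passed with the replicate block within each stage, and DESeq2 called 58. Of the 15305 genes tested in the hind limb, 746 had an unadjusted p under 0.05 in edgeR. Of these 746 genes, 133 were among the 572 that rose and 48 among the 189 that fell. Over all the genes that rose and fell, the median difference was 0.26 and -0.30 (log2, hind limb minus forelimb). These genes were selected for a large change in the same hind limb libraries. This favours that direction and also a low p-value in the interaction.

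The called genes were also read at stage 13. The 3 stage 13 hind limb libraries had a count for 24.2%, 25.7% and 24.7% of genes under 300 bases. This was more than in replicate 3 of stage 14 (19.9%), and what it does to the values below was not tested. Relative to the mean of the stage 14 hind limbs, the genes that rose had a median log2 level of -0.04, -0.18 and -0.24 in the 3 stage 13 hind limb libraries, against 1.45 and 1.52 in those of stage 15. The genes that fell were at 0.07, 0.11 and 0.17 at stage 13 and at -1.13 and -1.23 at stage 15. Over all genes tested the stage 13 medians were 0.024, 0.069 and 0.006. The larger step from stage 14 to 15 follows from how the genes were called, and the medians at stage 13 are over genes that went both ways. By gene, the stage 13 mean was below that of stage 14 for 344 of the genes that rose (60.1%), between those of the other stages for 218 and above that of stage 15 for 10. For the genes that fell it was above that of stage 14 for 107 (56.6%), between for 65 and below that of stage 15 for 17. Since the genes were called with stage 14 as one side, stage 13 was not compared with stage 14 by a test, and for the genes that fell the sign of this small difference turned with the genes called: it was -0.11 and -0.08 for those called without replicate 1 or 2 of stage 15. In the forelimb at stage 14, the genes that rose were at 0.28 to 0.46, above each stage 14 hind limb library. Those that fell were at -0.09 to -0.36, below each of them. The genes were called with those hind limb libraries as the low or high side, which favours this direction. These values therefore do not show that the limbs differ at stage 14.

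**Figure D5:**
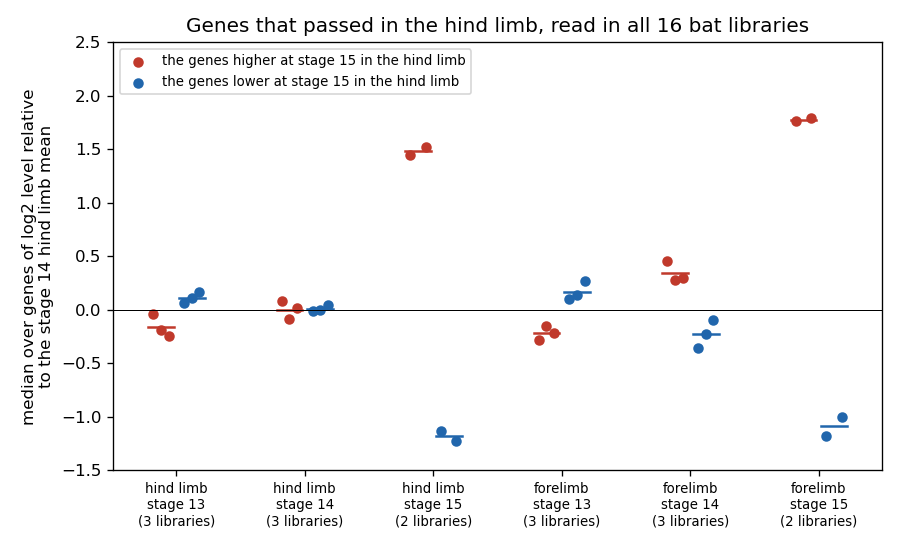
Each point is 1 bat library, and the y axis gives the median over genes of its log2 level relative to the mean of the 3 stage 14 hind limb libraries, for the 572 genes that rose (red) and the 189 that fell (blue) in the hind limb. Horizontal lines are group means, and the x axis gives limb and stage. Stage 13 and stage 14 libraries lie between -0.36 and 0.46, whereas those of stage 15 lie from 1.45 to 1.79 for genes that rose and from -0.996 to -1.23 for genes that fell, in both limbs.

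The tables also give for each library the mean length of a gene over its isoforms, weighted by their levels, which moves when isoforms change in share. Of 8541 tested genes with more than 1 isoform and a count of at least 10 in all 5 hind limb libraries, 70 (0.82%) had mean lengths that did not overlap between stages and differed by at least 25%, with 40 longer and 30 shorter at stage 15. The median size of these shifts was 37.0%. Of the 70 genes, 7 (10%) also passed the test on counts, against 4.08% of the genes not shifted. In the forelimb, 65 of them had enough counts and 51 (78.5%) shifted in the same direction, with median shifts of 19.9% for the longer and -20.8% for the shorter. Among the genes not shifted in the hind limb, 63.1% had the same direction in both limbs. No test was made, and isoforms of an assembly can be fragments or alleles of 1 gene.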

How the data were processed

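Total RNA of bat limbs was sequenced as single-end Illumina TruSeq libraries. Trimmed reads of all bat libraries were pooled by the authors for 1 Trinity assembly, which was reduced to isoforms matching SwissProt and used as RSEM's reference (versions are not given in the sources used here). As deposited, expected counts are RSEM's share-out of reads among genes, without normalization. The deposited FPKM values, also from RSEM, are scaled for effective length and library size, and the deposited length is given in bases, as another column of the same tables. Pooled assembly and reads shared between similar components can divide the counts of 1 gene.

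Expected counts were rounded and tested with edgeR 4.0.16 (R 4.3.3; robust quasi-likelihood test, TMM factors, count of at least 10 in 2 libraries, Benjamini-Hochberg adjustment over all genes tested, threshold 0.05), with only the libraries of a comparison in its fit. Standard errors are the absolute log2 fold change over the square root of F. CPM are rounded counts per 1000000 of the library's rounded counts. FPKM were divided by median-of-ratios size factors for the CoV. Named genes were, among genes that passed without overlap and with a mean count of at least 10 at each stage, the largest fold and the highest mean CPM in each direction. In pairs of libraries of a stage, rounded counts differed by a chi-square of 18.9 to 72.1 per degree of freedom, so no library was a copy. Members, gene sets and tests were chosen with earlier results of these data known. Alternatives were DESeq2 1.42.0, limma 3.58.1 on log2(FPKM + 1), other factors, filters, blocks and sample sets, and libraries left out. Summaries and figures were made with Python 3.11.15. The edgeR and DESeq2 fits were tried on 1 set of simulated counts with 2 against 3 libraries. There 4.85% of the edgeR calls and 11.7% of the DESeq2 calls were false, at the threshold of 0.05. Of the genes changed by a log2 of 1, edgeR recovered 65% and DESeq2 64%. For a log2 of 2 it was 92% and 94%. The changed genes were drawn from those with higher counts. The simulated spread depended on level only, with no library apart and no division like that of comp103659_c0. These rates therefore need not hold for the real libraries. Mouse, opossum and pig libraries were not analysed here.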

Additional observations from a re-analysis of the deposited data

How the results depend on the processing

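With 3 and 2 libraries per stage, the number of genes called changed much with 1 library left out, and the standard error was larger for genes with few counts. Of the hind limb count of 761, the alternatives gave 1366 with DESeq2 (63.8% of them higher, against 75.2%), 1201 with the lane number in the file name as a block and 268 with limma on log2(FPKM + 1). Libraries left out in turn gave from 234 (without stage 15 replicate 2) and 254 (without stage 15 replicate 1) through 469 (without stage 14 replicate 2) to 880, where the lone stage 15 library is assumed to vary like those of stage 14, and the share of genes higher ran from 71.0% to 83.1%. No alternative called any of the 761 genes in the opposite direction. The other alternatives without a block gave counts from 648 to 887. The cause was not tested.

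With the replicate number as a block, 1075 hind limb genes passed. The number is not known to pair the libraries. Deviations of same-numbered libraries from their stage means correlated at -0.233 and -0.230. With 2 libraries at stage 15, each value only mirrors that of the crossed pair (0.233 and 0.230). Pairs with the same lane number were at 0.230 and -0.030. These values cannot decide whether libraries are paired. The interaction called 58 genes with DESeq2 and 2 with the replicate block within each stage.

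The forelimb count of 1922 ran from 502 to 1550 with each library left out. The 529 genes shared between limbs became 920 with DESeq2 in both limbs and ran from 190 to 621 with each library of either limb left out, the forelimb ones being chosen after seeing the data. The Spearman coefficient became 0.961 within stage 14 and 0.964 between stages when CPM took the place of FPKM. For genes of at least 1000 bases it was 0.975 and 0.959. With each library left out it ran from 0.775 to 0.9002 within stage 14 and from 0.822 to 0.889 between stages, and the CoV within stage 14 ran from 0.157 to 0.215.

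For the genes that fell, the median stage 13 level relative to stage 14 (0.14, log2) was 0.21 with DESeq2 calls, 0.24 and 0.27 with calls from all 16 bat or all 8 hind limb libraries, 0.19 with the limit on length and 0.25 with the lane block. It reversed to -0.015 with limma calls and ran from -0.11 (without stage 15 replicate 1) and -0.08 (without stage 15 replicate 2) to 0.27 with libraries left out.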
